A study of Harpegnathos saltator with 32 samples.

Results

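The comparison of Kr-h1 siRNA with control siRNA in gamergates of the ant Harpegnathos saltator used 17 of the 32 brain libraries, chosen by their caste and knockdown labels. Of these, 9 were control (GFP) and 8 were Kr-h1 knockdown libraries, each from the central brain of 1 gamergate on day 10. All of these ants received a dicer-substrate siRNA with a transfection reagent by injection into the head, and the brain was taken 10 hours later. The control agent is written GFP in the titles and GRP in the protocol, and GFP is used here. Injection into the head does not restrict the siRNA to 1 cell type. The experiment was run in 2 rounds, which in gamergates are also the 2 sequencing runs. Round 2 (run 200508) held GFP replicates 1 to 4 and Kr-h1 replicates 1 to 4, and round 3 (run 200626) held GFP replicates 5 to 9 and Kr-h1 replicates 5 to 8.

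Gamergates are workers that have become reproductive after the loss of the queen, and the change of role is accompanied by a change in juvenile hormone and ecdysone signalling. Krüppel homolog 1 (Kr-h1) is a zinc finger transcription factor that acts downstream of the juvenile hormone receptor in insects, where it is best known for holding back metamorphosis. In the adult brain of social insects it is known as a hormone-responsive factor of neurons. The question addressed by the comparison is which brain transcripts depend on Kr-h1 in the reproductive caste.

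Values are FPKM, a level per kilobase of transcript scaled for depth. Depth read from the steps between low values was 4.8 to 12.49 M reads per library, with a median of 8.92 M. Spearman correlations between libraries ran from 0.922 to 0.985, and 0 pairs were identical. The 5 most abundant genes took 1.6% to 40.3% of the summed FPKM of a library. The neuronal genes nSyb, brp, Syn and Syt1 were present in every library, with a summed level of 374 to 608 FPKM in controls and 402 to 556 FPKM after knockdown, and 0 of these 4 passed the test. The photoreceptor markers, 8 of them matched, had a sum of 59.6 to 760 FPKM (median 515) in controls and 52.5 to 595 FPKM (median 256) after knockdown. Of the 7 tested, 6 lay below 0 and 0 passed. The 6 muscle markers summed to 31.2 to 79.2 FPKM in controls and 26.3 to 408 FPKM after knockdown, with the highest sum in Kr-h1 replicate 2. All 6 lay below 0 and 0 passed.

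Kr-h1 (LOC112589664) itself was low in these brains and lower in the knockdown libraries. In round 2 it was at 7.57, 2.79, 1.87 and 0.995 FPKM in GFP replicates 1 to 4, and at 0.114, 0.580, 1.01 and 0.163 FPKM in Kr-h1 replicates 1 to 4. In round 3 it was at 0.571, 0.683, 0.480, 0.676 and 0.809 FPKM in GFP replicates 5 to 9, and at 0.402, 0.627, 0.278 and 0.369 FPKM in Kr-h1 replicates 5 to 8. All 8 knockdown libraries lay below the control median of their round, although the ranges of the groups met in both rounds. The means were 3.31 ± 2.94 FPKM (n = 4, SD) against 0.47 ± 0.417 FPKM (n = 4, SD) in round 2, and 0.644 ± 0.125 FPKM (n = 5, SD) against 0.419 ± 0.148 FPKM (n = 4, SD) in round 3.

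On the scale of log2(FPKM + 0.5), the difference adjusted for round was -1.02 (exact two-sided permutation within rounds, 8820 splits, p = 0.00159). Within round 2 alone it was -1.79 (exact p = 0.0571 over 70 splits), and within round 3 alone it was -0.32 (exact p = 0.0556 over all splits of that round). In the fit over 12430 genes with no filter, limma gave -1.02 ± 0.31 (SE), with an adjusted p of 0.101. The gene was covered by 4 to 362 reads per library and did not reach the level filter used for the other genes. Without GFP replicate 1 and Kr-h1 replicate 1 the difference was -0.65 (exact p = 0.00556).

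**Figure D1:**
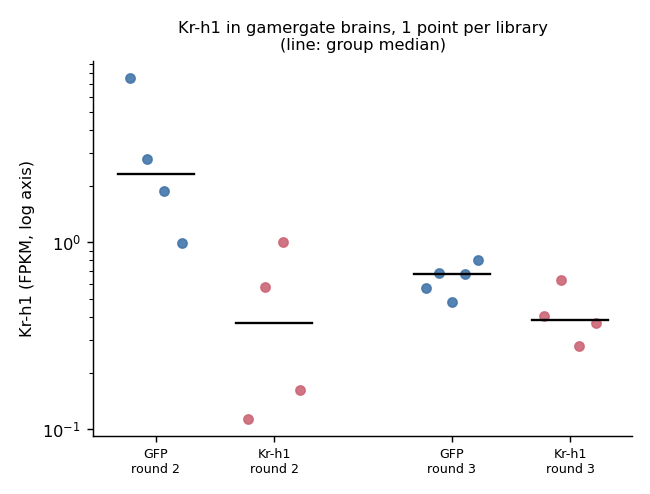
Kr-h1 in each gamergate library, in FPKM on a log axis, by siRNA and experiment round, with the group median as a line. GFP replicate 1 is the highest point at 7.57 FPKM, and all 8 Kr-h1 siRNA libraries lie below the control median of their round.

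Genes that fell with knockdown included the receptor tyrosine kinases sev, Alk and Egfr and the clock genes Clk and per. Genes that rose included Myc, 7 ribosomal protein genes and 5 genes of the splicing and RNA polymerase II list. Of the genes just named in both directions, sev, Clk and Myc were still called when the trend of each library over gene span was removed. The others were not. The smallest p among decreases belonged to sev, a receptor tyrosine kinase, and among increases to Trs33, a subunit of the TRAPP trafficking complex. Of 8996 genes that reached 1 FPKM in 8 or more of the 17 libraries, 192 passed limma's test at an adjusted p under 0.05, which is 2.13%. Of these, 86 rose (0.956% of genes tested) and 106 fell (1.18%). Most changes were small: 189 of the 192 were under 1 on the log2 scale, with a median of 0.42 for genes that rose and -0.51 for genes that fell. At an unadjusted p under 0.05 there were 2531 of the 8996 genes, 1464 of them above and 1067 below 0. Counts at this level in the lists below are to be read against that number. Of all genes tested, knockdown and control libraries did not overlap within either round for 36 higher (0.4%) and 31 lower ones (0.345%). Of these, 28 and 29 were among the 192 called. The calls rest on the same values, so this is no separate evidence for them.

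The count of 192 depended on single libraries. It was 1052 without GFP replicate 3, and 118, 79, 57 and 55 without GFP replicate 4, Kr-h1 replicate 3, Kr-h1 replicate 5 or GFP replicate 5. It fell to 38 or 31 without Kr-h1 replicate 1 or 2, and to 25, 21, 15 and 15 without Kr-h1 replicate 8, GFP replicate 1, GFP replicate 2 or Kr-h1 replicate 6. The lowest counts were 12 and 11, without GFP replicate 7 or 6. Without both GFP replicate 1 and Kr-h1 replicate 1 it was 11. The balance of directions moved as well, from 55.2% lower over all libraries to 46% without GFP replicate 3 (568 higher and 484 lower), and to 91.7% and 90.9% without GFP replicate 7 or 6, with 1 gene higher in each. Just 11 genes were called in all 17 fits without 1 library, among them sev, Trs33, mwh and the unnamed genes LOC105185741 and LOC105192651. The called genes also differed in length: the median gene span was 1.97 kb for those that rose, 18.57 kb for those that fell and 4.44 kb for all genes tested. In each round the correlation of a library's deviations from the gene means with gene span was lower after knockdown. It was 0.322 ± 0.192 (n = 4, SD) in controls and 0.020 ± 0.135 (n = 4, SD) after knockdown in round 2, and -0.132 ± 0.104 (n = 5, SD) and -0.310 ± 0.060 (n = 4, SD) in round 3. When the trend of each library over gene span was taken out, 24 genes were called, 3 of which rose and 21 fell, and 22 of them were among the 192. Of the 59 called genes named here, 10 were still called in that fit: sev, Clk, wake, mwh, stumps, Etf-QO, LOC105185741 and LOC105192651 among decreases, and Myc and Set2 among increases.

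**Figure D2:**
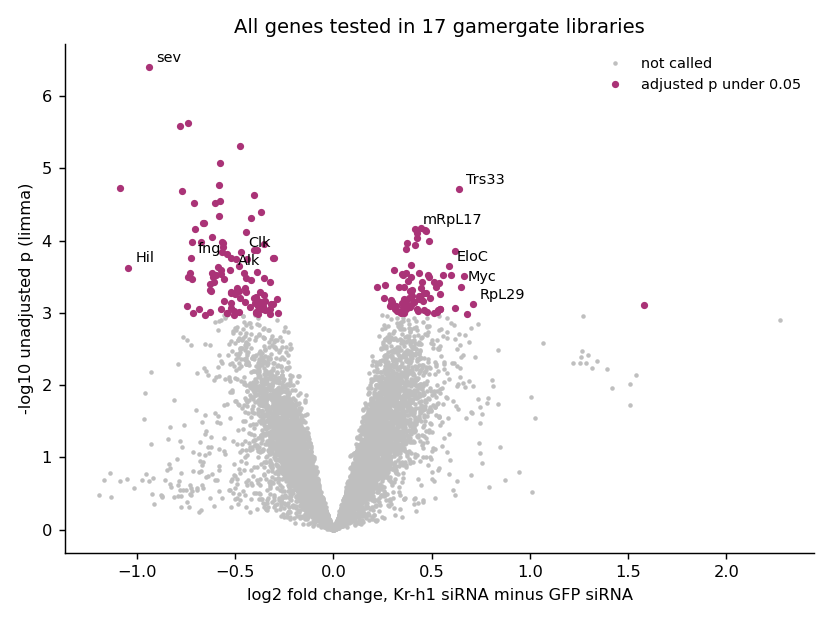
Log2 fold change of Kr-h1 siRNA against GFP siRNA for the 8996 genes tested in gamergates, plotted against -log10 of the unadjusted limma p. The 192 called genes are coloured, 86 to the right and 106 to the left of 0, and sev is the highest point at a log2 change of -0.94.

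Signalling receptors are described first among the decreases. The receptor tyrosine kinase sev (LOC105187874) takes part in photoreceptor specification in Drosophila. In round 2 it was at 16.3, 17.3, 14.4 and 11.9 FPKM in controls and at 5.37, 8.28, 8.48 and 6.48 FPKM after knockdown. In round 3 it was at 10.5, 7.5, 8.46, 8.01 and 8.14 FPKM in controls and at 5.70, 3.55, 5.49 and 3.45 FPKM after knockdown. Every knockdown library lay below every control library of its round. The log2 change was -0.94 ± 0.12 (SE; limma adjusted p = 0.00358), and over all fits without 1 library its adjusted p did not exceed 0.0153. In tissue such as this, fewer cells of a type and less RNA per cell cannot be told apart.

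The gene lists described from here on were chosen with earlier results of these data known. A share called in a list is therefore a description and no evidence about the list. Of the 18 genes of receptor tyrosine kinase signalling, all of which passed the filter, 3 fell and 0 rose (16.7% called, against 2.13% of all genes). The gene sev is counted here and again among the photoreceptor and retinal genes. Alk (LOC105191722), a receptor tyrosine kinase of neurons, was at 74.6, 77.2, 46.3 and 52.6 FPKM in round 2 controls and at 28.3, 44.9, 43.6 and 38.9 FPKM in Kr-h1 replicates 1 to 4. In round 3 its controls lay between 48.3 and 59.6 FPKM and its knockdown libraries between 37.7 and 44.7 FPKM, again with no overlap. The change of Alk was -0.52 ± 0.12 (SE; limma adjusted p = 0.0385). The epidermal growth factor receptor Egfr fell from 2.36 ± 0.570 FPKM (n = 9, SD) to 1.5 ± 0.356 FPKM (n = 8, SD), a change of -0.52 (limma adjusted p = 0.0471). Below these in the cascade, the ETS repressor aop had -0.49 (adjusted p = 0.0584), the antagonist sty -0.44 (adjusted p = 0.102) and the exchange factor Sos -0.38 (adjusted p = 0.0811). The sev ligand boss had -0.96 (adjusted p = 0.103), while jeb, the ligand of Alk, stood at 0.01. The median of the list was -0.17, against 0.01 for all genes, with 13 members below 0, and was -0.056 with the span trend removed. In that fit sev was the 1 member called, with adjusted p of 0.0674 for Alk and 0.11 for Egfr. The calls of Alk and Egfr held in 7 and 4 of the 17 fits without 1 library.

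Notch signalling, in which membrane ligands on one cell activate a receptor on its neighbour, held 1 called gene among 20 that passed the filter (22 in the table), which is 5% against 2.13% of all genes. This was fng (LOC105185424), the glycosyltransferase that modifies the Notch receptor. It stood at 17.01, 19.4, 14.1 and 19.9 FPKM in round 2 controls and at 12.0, 11.2, 9.76 and 7.99 FPKM after knockdown. In round 3 the controls were at 18.8, 14.7, 14.7, 16.7 and 7.87 FPKM and the knockdown libraries at 10.3, 5.63, 9.55 and 9.14 FPKM. The groups were apart in round 2, and in round 3 GFP replicate 9 fell among the knockdown libraries. The change was -0.73 ± 0.15 (SE; limma adjusted p = 0.0331), and the call held in 9 of the 17 fits without 1 library. Its adjusted p was 0.0949 with the span trend removed. The ligand Dl had -0.52 (adjusted p = 0.0645), the Hes-family repressor dpn -0.65 (adjusted p = 0.0664), the DNA-binding partner Su(H) -0.19 (adjusted p = 0.115) and the receptor N -0.24 (adjusted p = 0.253). In the list, 15 members lay below 0 and 5 above, with a median of -0.09.

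Transcription factors were also among the decreases. Optix (LOC105183187), a homeobox factor of eye and brain development, was at 8.10, 11.2, 8.52 and 9.59 FPKM in round 2 controls and at 3.63, 6.10, 4.54 and 4.90 FPKM after knockdown. Its round 3 values were 7.15 to 10.3 FPKM in controls and 5.27 to 7.93 FPKM after knockdown, so that the groups overlapped. Its change was -0.62 ± 0.12 (SE; limma adjusted p = 0.0295). Dll, the homeobox factor Distal-less, fell from 8.05 ± 3.05 FPKM (n = 9, SD) to 4.70 ± 1.41 FPKM (n = 8, SD), by 0.72 on the log2 scale (limma adjusted p = 0.0295). Chosen after their values were seen, the sex-determination factor dsx (-0.57), the hypoxia factor sima (-0.35) and the lysosomal regulator Mitf (-0.36) also fell (limma adjusted p = 0.0479, 0.0295 and 0.0476).

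Of 6 clock genes that passed the filter, 2 fell (33.3%, against 1.18% of all genes tested). Clk (LOC105190712), the activating clock transcription factor, was at 15.5, 14.0, 9.25 and 11.7 FPKM in round 2 controls and at 6.56, 7.73, 9.70 and 9.00 FPKM after knockdown. In round 3 it lay at 9.28 to 11.6 FPKM in controls and 7.28 to 8.35 FPKM after knockdown. The groups were apart in round 3, and in round 2 only GFP replicate 3 reached into the knockdown range. The change was -0.47 ± 0.10 (SE; limma adjusted p = 0.0313). The repressor per fell from 6.44 ± 2.14 FPKM (n = 9, SD) to 4.40 ± 1.68 FPKM (n = 8, SD), a change of -0.56 (limma adjusted p = 0.0471). The call of per held in 3 of the 17 fits without 1 library and that of Clk in 9, and with the span trend removed the adjusted p was 0.113 for per and 0.0451 for Clk. The Clk partner cyc had -0.40 (adjusted p = 0.103), cwo -0.17, the neuropeptide receptor Pdfr -0.13 and its ligand Pdf 0.51 (adjusted p = 0.539). Named after its values were seen, wake, which acts in clock neurons of Drosophila, fell by 0.56 (limma adjusted p = 0.0306).

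**Figure D3:**
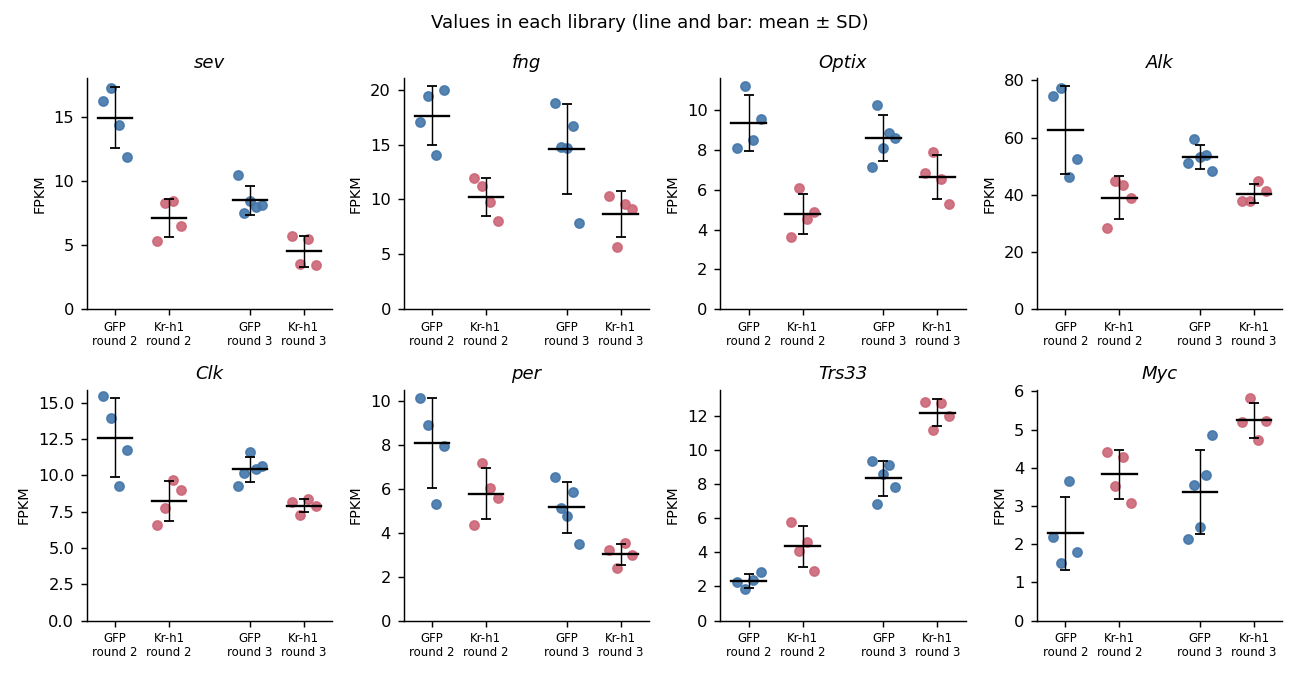
FPKM of 8 named genes in each gamergate library by siRNA and round, with the mean and SD of each group. For sev, Alk and Trs33 the knockdown libraries lie apart from the controls in both rounds, while fng, Optix, Clk, per and Myc overlap in at least 1 round.

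The juvenile hormone and ecdysone factors, the pathway to which Kr-h1 belongs, gave 0 calls by limma among the 17 that passed the filter (25 in the table). At an unadjusted p under 0.05 there were 3, against 2531 of the 8996 genes tested. Members with a small p were br, the Broad transcription factor, at -0.46 ± 0.18 (SE; adjusted p = 0.117), the nuclear receptor ftz-f1 at -0.22 ± 0.09 (adjusted p = 0.12) and the ecdysone receptor Ecr at 0.17 ± 0.09 (adjusted p = 0.228). For br the controls ran from 4.65 to 12.9 FPKM (median 5.22) and the knockdown libraries from 2.89 to 6.00 FPKM (median 4.42). The usp subunit of the ecdysone receptor had -0.22 (adjusted p = 0.229), E75 0.04 and Eip93F 0.14. The median was -0.11, with 7 members above and 10 below 0.

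In the fat body list 2 of the 8 genes that passed the filter fell (25%, against 1.18% of all genes tested). Of its members 4 lay above and 4 below 0, with a median of -0.07. Fatp3, a fatty acid transporter, fell from 22.6 ± 9.41 FPKM (n = 9, SD) to 15.1 ± 4.85 FPKM (n = 8, SD), a log2 change of -0.57 (limma adjusted p = 0.0313), with no overlap in either round. The lipid carrier apolpp ranged from 145 to 358 FPKM (median 221) in controls and from 132 to 221 FPKM (median 155) after knockdown, a change of -0.47 (limma adjusted p = 0.0469). Fatty acid synthase FASN1 did not overlap between groups in either round, but its change of -0.57 had an adjusted p of 0.0528. The adjusted p of Fatp3 and apolpp was 0.0674 and 0.101 with the span trend removed. The list also holds storage and yolk proteins, of which Hex70a stood at 0.13 and the vitellogenin gene Vgn at 0.35 (adjusted p = 0.794). Outside the list, and named after their values were seen, acetyl-CoA carboxylase ACC (-0.46), the lipid transfer protein Mtp (-0.44), pyruvate carboxylase PCB (-0.39), the glycogen primer Gyg (-0.52), Etf-QO of fatty acid oxidation (-0.56), the copper transporter ATP7 (-0.48) and the zinc transporter ZnT77C (-0.37) also fell. Their adjusted p from limma lay between 0.0261 and 0.049.

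The remaining named decreases have varied roles. Hil, a transglutaminase-like protein, fell furthest, from 2.63 ± 1.56 FPKM (n = 9, SD) to 1.01 ± 0.586 FPKM (n = 8, SD), by 1.04 on the log2 scale (limma adjusted p = 0.0385). The lysosomal membrane protein Cln3 fell by 0.74, the exchanger zyd, known from glia of Drosophila, by 0.68, and the Arf regulator Asap by 0.66. The organic anion transporter Oatp58Dc, the calsyntenin Cals, the proprotein convertase Fur2 and the endocytic receptor mgl fell by 0.63, 0.62, 0.62 and 0.60. Their adjusted p from limma lay between 0.0385 and 0.0499. The peptidase Nep3, a neprilysin, ranged from 22.7 to 46.3 FPKM (median 27.2) in controls and from 13.1 to 24.2 FPKM (median 20.5) after knockdown, a change of -0.51 (limma adjusted p = 0.0499). The highly expressed bnb fell from 382 ± 51.5 FPKM (n = 9, SD) to 264 ± 57.8 FPKM (n = 8, SD), a change of -0.56 (limma adjusted p = 0.0385). Chosen after their values were seen, mwh of planar polarity (-0.58) and stumps, an adaptor of fibroblast growth factor receptors in Drosophila (-0.42), had an adjusted p of 0.0211 and 0.027. The unnamed genes LOC105192651 and LOC105185741 fell by 0.78 and 0.74, each with a limma adjusted p of 0.00779 and with no overlap between groups in either round.

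On the side of increases, Trs33 (LOC105188572) was at 2.25, 1.83, 2.37 and 2.83 FPKM in round 2 controls and at 5.81, 4.10, 4.62 and 2.88 FPKM after knockdown. Round 3 gave 9.35, 6.82, 8.62, 9.11 and 7.84 FPKM in controls and at 12.8, 11.2, 12.8 and 12.0 FPKM after knockdown. The groups were apart in both rounds, closest between GFP replicate 4 and Kr-h1 replicate 4 in round 2, and the rounds differed more than the siRNAs. The change was 0.64 ± 0.11 (SE; limma adjusted p = 0.0207). It was 0.37 and no longer called with the span trend removed. The call held in all 17 fits without 1 library. In the trafficking list 51 of 53 genes passed the filter, and Trs33 was the 1 gene called (1.96%, against 2.13% of all genes). Of the others, AP-2sigma of the clathrin adaptor had 0.58 (adjusted p = 0.051), the exocyst subunit Sec8 0.51 (adjusted p = 0.0694) and the coat protein Sec31 -0.38 (adjusted p = 0.0746), around a median of 0.01.

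Myc (LOC105186502), the transcription factor that drives growth and ribosome production, rose from 2.88 ± 1.13 FPKM (n = 9, SD) to 4.54 ± 0.911 FPKM (n = 8, SD). In round 2 it was at 2.19, 1.51, 3.65 and 1.79 FPKM in controls and at 4.41, 3.52, 4.29 and 3.09 FPKM after knockdown, so that GFP replicate 3 lay in the knockdown range. In round 3 the controls lay between 2.13 and 4.87 FPKM and the knockdown libraries between 4.72 and 5.82 FPKM, with GFP replicate 9 reaching into the knockdown range. The change was 0.65 ± 0.15 (SE; limma adjusted p = 0.0419), and the call held in 5 of the 17 fits without 1 library. Unlike most increases it is a long gene, with a span of 32.85 kb, and it was 0.76 and still called with the span trend removed.

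Ribosomal protein genes lay almost entirely above 0, although few passed one by one. All 58 cytosolic ribosomal protein genes were above 0 with a median of 0.38. The 2 called as higher (3.45%, against 0.956% of all genes tested) were RpL29 (0.71, limma adjusted p = 0.0471) and RpS25 (0.44, adjusted p = 0.0462). RpL36A had 0.44 (adjusted p = 0.0736) and RpL38 0.57 (adjusted p = 0.0823). The median was 0.70 in round 2 and 0.09 in round 3. Of the 72 mitochondrial ribosomal protein genes 71 were above 0, with a median of 0.31 (0.41 in round 2 and 0.21 in round 3), and 5 rose (6.94%). These were mRpL30, mRpL17, mRpL28, mRpS5 and, named after its values were seen, mRpL32. For mRpL17 (LOC105184188) the controls were at 2.06, 1.98, 2.34 and 2.78 FPKM in round 2 and 3.59 to 5.18 FPKM in round 3, and the knockdown libraries at 3.37, 2.97, 3.43 and 3.43 FPKM and 5.27 to 6.83 FPKM. The groups were apart in both rounds, and the change was 0.42 ± 0.08 (SE; limma adjusted p = 0.0283). None of these 7 ribosomal genes was called with the span trend removed, with adjusted p from 0.095 for RpL29 to 0.241 for mRpL17.

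Of the 52 oxidative phosphorylation genes 49 lay above 0 with a median of 0.28, while 0 were called by limma. Against 2531 of all 8996 genes tested, 27 of the list had an unadjusted p under 0.05. Among them were the complex I subunits ND-B15 (0.58, adjusted p = 0.0612), ND-B17 (0.39) and ND-B8 (0.62), and the ATP synthase subunit ATPsyndelta (0.26). Members of these 3 lists have short spans, with medians of 1.54, 1.39 and 1.69 kb. With the span trend removed, the medians of the cytosolic ribosomal, mitochondrial ribosomal and oxidative phosphorylation lists were 0.21, 0.10 and 0.094, and without GFP replicate 1 and Kr-h1 replicate 1 they were 0.22, 0.21 and 0.16. The ribosomal levels were not spread evenly over the libraries. The mean log2(FPKM + 0.5) of the cytosolic list was 7.10 in Kr-h1 replicate 1 and 6.05 to 6.4 in the other 3 round 2 knockdown libraries, against 6.42 in GFP replicate 3 and 5.38 to 5.77 in the other 3 controls. In round 3 it was 5.84 ± 0.143 (n = 5, SD) in controls and 5.95 ± 0.161 (n = 4, SD) after knockdown.

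**Figure D4:**
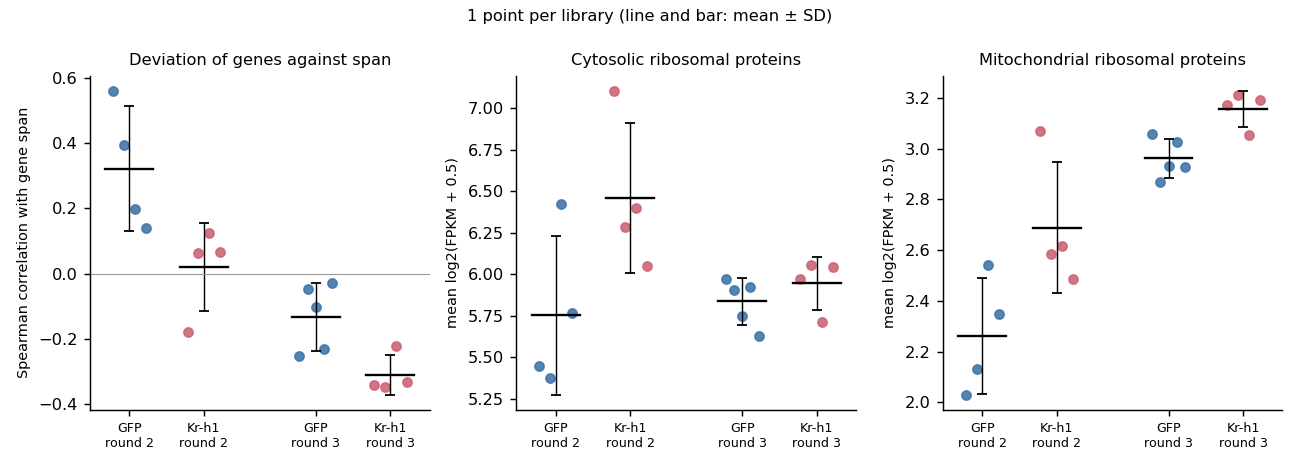
Per library, the Spearman correlation over genes between deviation from the gene mean and gene span (left), and the mean log2(FPKM + 0.5) of cytosolic (middle) and mitochondrial (right) ribosomal protein genes, with group mean and SD. From controls to knockdown libraries, the mean span correlation falls from 0.322 to 0.020 in round 2 and from -0.132 to -0.310 in round 3. Kr-h1 replicate 1 has the highest cytosolic value, 7.10.

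The list of splicing and RNA polymerase II genes was matched by symbol and also holds genes of other roles. Among its 39 genes, 5 rose (12.8%, against 0.956% of all genes) and 0 fell, with 28 above and 11 below 0. These were EloC, the Elongin C subunit (0.59 ± 0.13 SE; limma adjusted p = 0.0385), the Sm ring protein SmD2 (0.48, adjusted p = 0.0385), the polymerase subunit Rpb11 (0.43, adjusted p = 0.0469), LSm1 of messenger RNA decay (0.40, adjusted p = 0.0438) and, named after its values were seen, U2A of the U2 particle (0.29, adjusted p = 0.0479). None of the 5 was called with the span trend removed, with adjusted p from 0.0674 for EloC to 0.383 for U2A. The median of the list was 0.17, or 0.015 with the span trend removed and 0.075 without GFP replicate 1 and Kr-h1 replicate 1. The large subunit RpII215 stood at -0.24 and the splicing factor Prp8 at -0.37 (adjusted p = 0.108). Other increases named by rank were robl, a dynein light chain (0.53), rswl (0.52), the mitochondrial transcription factor mtTFB2 (0.48), l(2)37Cg (0.47) and Ctu2, which modifies transfer RNA (0.46), with adjusted p from 0.0283 to 0.049. For l(2)37Cg the controls ran from 3.69 to 5.73 FPKM and the knockdown libraries from 5.14 to 9.85 FPKM, apart within each round. Named after their values were seen, the histone methyltransferase Set2 (0.26), the Paf1 complex subunit Rtf1 (0.31) and the Elongator subunit Elp5 (0.38) rose as well (limma adjusted p = 0.0469, 0.0479 and 0.0396). The unnamed genes LOC112588318 and LOC105188245 rose by 0.47 and 0.44, each with an adjusted p of 0.0283.

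Markers of photoreceptors, glia, haemocytes and muscle lay mostly below 0, against 48% of all genes tested. Their part in the decreases above was not tested. Of 18 photoreceptor and retinal genes that passed the filter (21 in the table), 17 lay below 0 with a median of -0.44. The 2 called as lower were sev and Optix (11.1%, against 1.18% of all genes tested). With the span trend removed sev was still called, and Optix had an adjusted p of 0.0905. The median was -0.89 in round 2 and -0.06 in round 3. The arrestins Arr1 and Arr2 had -1.08 (adjusted p = 0.389) and -0.76 (adjusted p = 0.463), with Arr2 ranging from 32.1 to 626 FPKM over the libraries. The opsins Lop1 and Rh5 stood at -0.16 (adjusted p = 0.782) and 0.35 (adjusted p = 0.367). The change of sev was -1.02 in round 2 and -0.86 in round 3.

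Of 16 glial genes 14 lay below 0 with a median of -0.29, and 0 passed in limma. At an unadjusted p under 0.05 there were 7, against 2531 of the 8996 genes tested. The gap junction genes Inx2 and Inx3 had -0.66 (adjusted p = 0.0815) and -0.47 (adjusted p = 0.0696), the GABA transporter Gat-a -0.54 (adjusted p = 0.073) and the septate junction gene axo -0.40 (adjusted p = 0.05, not under the threshold). The 6 glial markers matched, repo among them, summed to 274 to 526 FPKM in controls and 215 to 402 FPKM after knockdown, and all 6 lay below 0. Of 5 haemocyte genes that passed the filter 0 were called by limma. Below 0 were Hml (-0.32), Ppn (-0.29), PPO (-0.25) and Col4a1 (-0.40), and 1 stood above 0 at 0.064. The 3 haemocyte markers matched summed to 4.01 to 11.4 FPKM in controls and 3.40 to 6.58 FPKM after knockdown. Of 10 muscle genes 8 lay below 0, with a median of -0.06, of 0.40 in round 2 and -0.54 in round 3. Mhc was at 72.1 FPKM and Tm2 at 69.7 FPKM in Kr-h1 replicate 2, while the medians of the knockdown libraries were 4.04 and 5.73 FPKM. Their changes over both rounds, and that of the myosin light chain Mlc2, were -0.23, -0.17 and -0.20 (adjusted p from 0.715 to 0.802). Without Kr-h1 replicate 2 they were -0.64, -0.56 and -0.64 (limma adjusted p = 0.0753, 0.149 and 0.199). The flightin gene fln stood at 0.10 and Zasp66 at -0.34.

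Genes of neuronal function gave few differences. Of 45 synaptic genes 0 were called by limma, with a median of -0.05. Against 2531 of all 8996 genes tested, 6 of them had an unadjusted p under 0.05. Among them were the glutamate receptor subunit Nmdar1 at -0.25 ± 0.09 (SE; adjusted p = 0.11), complexin cpx at 0.35, the receptor subunit Grd at -0.29 and the neuroligin Nlg3 at -0.23. The neuronal genes nSyb, Syn, Syt1 and brp stood at 0.16, -0.13, -0.01 and -0.01. Of 16 genes of biogenic amines 14 lay below 0 with a median of -0.16, and 0 were called, with 7 at an unadjusted p under 0.05. The octopamine receptors Octalpha2R and Oamb had -0.50 (adjusted p = 0.0841) and -0.34, the octopamine enzyme Tbh -0.50, and tyrosine hydroxylase ple -0.67 (adjusted p = 0.146). Among 17 neuropeptide genes 0 were called and 4 had an unadjusted p under 0.05, with a median of -0.13. Corazonin (Crz) ranged from 25.3 to 45.0 FPKM (median 42.7) in controls and from 29.3 to 89.2 FPKM (median 43.6) after knockdown, at 0.27 (adjusted p = 0.285). The others were CCHa1 at 0.34 (adjusted p = 0.153), the insulin-like peptide ILP-2 at -0.24 (adjusted p = 0.225), Ms at -0.30, Nplp1 at -0.31 and the receptor ETHR at -0.22.

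The growth-control and stress lists held no called gene. Their counts at an unadjusted p under 0.05 stand beside 2531 of the 8996 genes tested. Of 22 insulin and TOR genes, with a median of -0.11 and 14 members below 0, 0 were called by limma and 4 had an unadjusted p under 0.05, among them the kinase Tor at -0.33 (adjusted p = 0.0656), rictor at -0.33 (adjusted p = 0.0771), the insulin receptor substrate chico at -0.23 and Rheb at 0.15. Of 15 heat shock and folding genes, with a median of 0.051 and 11 members above 0, 0 were called and 2 had an unadjusted p under 0.05, with Hsc20 at 0.50 (adjusted p = 0.0643), Hsc70-3 at -0.20, stv at 0.16 and CCT1 at 0.11. Of 12 detoxification and antioxidant genes, 10 lay above 0 with a median of 0.14 (0.28 in round 2 and 0.01 in round 3), 0 were called and 4 had an unadjusted p under 0.05, with Gclm at 0.30, Prx5 at 0.26, Prx6a at 0.24 and Tpx-3 at 0.22. The second neprilysin, Nep2, stood at -0.05 (adjusted p = 0.947).

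**Figure D5:**
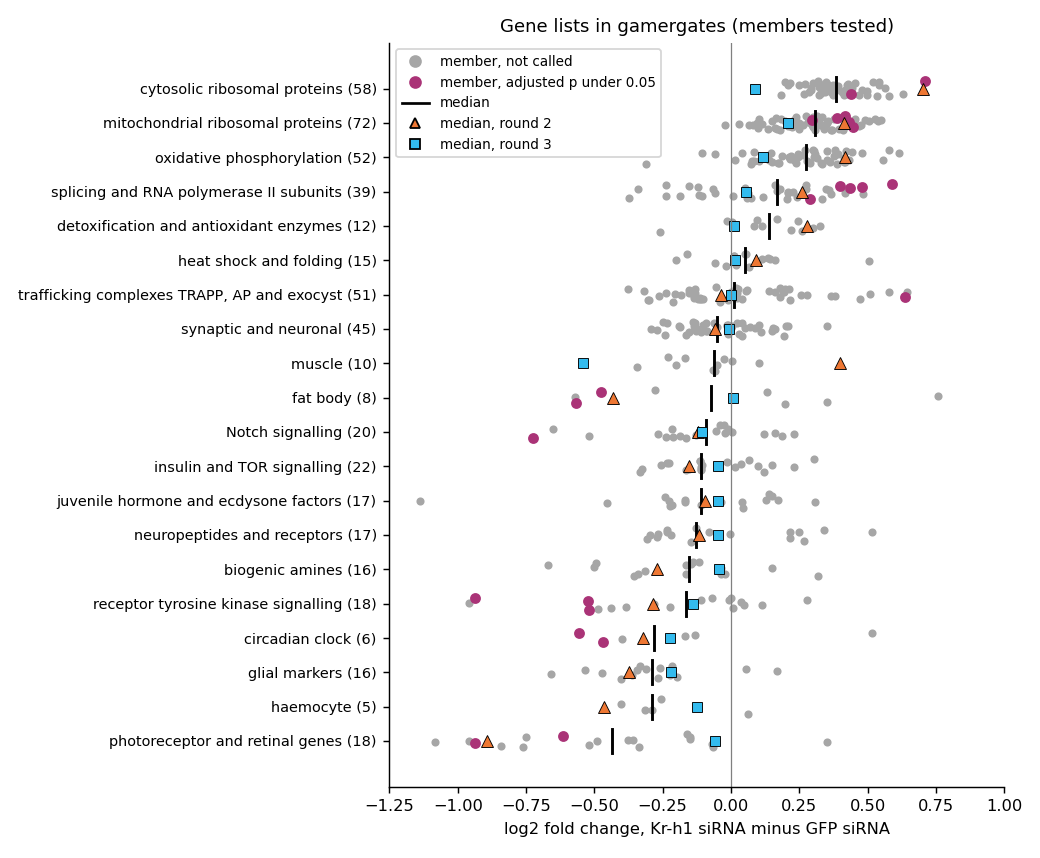
Log2 fold change of the members of 20 gene lists that passed the filter in gamergates, 1 point per gene, with the list median as a line and the medians within round 2 (triangle) and round 3 (square). Cytosolic and mitochondrial ribosomal proteins lie highest, with medians of 0.38 and 0.31, and photoreceptor and retinal genes lowest, at -0.44, with the round medians of muscle on opposite sides of 0.

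The effect of the knockdown was compared between the rounds with an interaction term, and 6 of 8996 genes passed (0.0667%), with 316 at an unadjusted p under 0.05. All 6 are annotated as pseudogenes, and none of the 192 called genes was among them. LOC112589011 was at 81.0, 40.3, 45.5 and 18.2 FPKM in Kr-h1 replicates 1 to 4 and between 4.20 and 7.16 FPKM in the controls of that round. In round 3 it lay between 5.09 and 7.98 FPKM in controls and between 4.76 and 7.61 FPKM after knockdown, and in the worker libraries between 4.07 and 25.9 FPKM. The other 5, LOC112588468, LOC112588467, LOC112588546, LOC112588547 and LOC112590528, followed the same pattern, with round 2 changes of 2.59 to 3.00 and round 3 changes of -0.07 to -0.01. Pseudogenes can share reads with near-identical copies, so the assignment of these reads to single loci is uncertain. The count was 2 without GFP replicate 5 and 0 without any of GFP replicates 2, 4, 6, 7 and 8 or Kr-h1 replicates 2, 3, 6, 7 and 8.

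To see where gamergates differ from workers, the knockdown effects of both castes were compared in a fit of all 32 libraries. The worker libraries were GFP replicates 1 to 8 and Kr-h1 replicates 1 to 7. The effect differed for 1554 of 9433 genes (16.5%), with a higher effect in gamergates for 893 (9.47%) and a lower one for 661 (7.01%). The balance turned over with the span trend removed, when 248 genes differed: the gamergate effect was above that of workers for 93 and below it for 155. In workers alone the same fit called 0 of 9433 genes for knockdown by limma (0%), with 1618 at an unadjusted p under 0.05, so the worker values below are ones that did not pass. This comparison uses the same gamergate libraries as the one above, so the values of the named genes are given side by side. The gene sev had -0.05 ± 0.20 in workers, and the difference was -0.89 ± 0.27 (SE; limma adjusted p = 0.0315). Optix had 0.41 ± 0.16 (SE) in workers (difference -1.02, adjusted p = 0.0155), Alk 0.38 ± 0.13 (difference -0.90, adjusted p = 0.0155) and Trs33 -0.26 ± 0.11 (difference 0.90, adjusted p = 0.013). For fng, Dll and bnb the effects in workers were -0.33, -0.35 and -0.58, and the difference did not pass (adjusted p = 0.261, 0.335 and 0.962). Of the 58 cytosolic ribosomal genes, 52 had a higher effect in gamergates, with a worker median of -0.41, and of the 72 mitochondrial ones 40 did, with a worker median of -0.21. Without GFP replicate 1 and Kr-h1 replicate 1 together 315 genes differed between castes, and without GFP replicate 1, GFP replicate 2 or Kr-h1 replicate 1 the counts were 875, 778 and 787. Of the 74 named genes that differed, 15 still did with the span trend removed. Without GFP replicate 1 and Kr-h1 replicate 1 together, 30 of them did. These counts are not broken down by gene here. Round 2 workers were sequenced on another run than round 2 gamergates, so caste and run cannot be told apart within that round.

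Caste-biased genes were followed in libraries that had not chosen them. Genes were ranked by limma's moderated t for caste among round 3 controls, which were worker GFP replicates 6 to 8 and gamergate GFP replicates 5 to 9. The top 200 and bottom 200 were read in round 2 gamergates. Of the 200 genes higher in worker controls, 145 were above 0 after knockdown, with a median change of 0.25. Of the 200 higher in gamergate controls, 151 were below 0, with a median of -0.22, against 49.7% above 0 and a median of -0.00 over all 9433 genes. Their median spans were 2.24 kb and 12.15 kb, against 4.33 kb for all genes. With the span trend removed, the 200 genes of each direction were chosen again from the changed values. Of these new lists, 128 genes higher in worker controls lay above 0 and 139 higher in gamergate controls lay below 0. Their medians were 0.10 and -0.13, against 46.4% above 0 and a median of -0.02 over all genes.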

How the data were processed

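Polyadenylated RNA of single central brains was sequenced from strand-specific libraries, per the labels' protocols. The deposited values are FPKM for 14001 genes, made by the authors. Tools named in the submitters' processing notes are bcl2fastq, STAR, featureCounts and DESeq2. Their versions, the build, the annotation and the strand setting of the counting were not given in the sources used here. Names and gene spans come from RefSeq assembly Hsal_v8.6, which matched 13989 identifiers and left 12 unmatched.

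Values of log2(FPKM + 0.5) were fitted in R 4.3.3 with limma 3.58.1, with terms for round and knockdown, eBayes with a mean-variance trend and Benjamini-Hochberg adjustment at 0.05 over genes that reached 1 FPKM in 8 or more of the 17 libraries. Fold changes on this scale understate the change of low genes. The caste comparison used all 32 libraries, 4 groups and a batch term of 3 levels, for genes that reached 1 FPKM in 7 or more. Kr-h1 was tested by exact permutation within rounds. The fits were tested on simulated data with independent noise for each gene. These data held no span trend of single libraries and no library of low weight, so they cannot bear on those features.

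Whole reads were recovered from the FPKM steps for 98.5% of 12692 detected genes (tolerance 0.02 reads, against 1.4% of 500 genes with jittered library scales), and 55.1% of read numbers were even, so a read may not be an independent fragment. limma voom on these reads called 91 genes.

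The members and gene lists were chosen with earlier results of these data known. Named genes are Kr-h1, the 12 highest and 12 lowest called genes with a symbol, up to 4 members of each list by smallest p, a panel, 2 unnamed genes per direction, and genes stated as named after their values were seen. A gene chosen by this rule is not reported here. Promoter sequences were not used here.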

Additional observations from a re-analysis of the deposited data

Results flagged for a closer look

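Single libraries stood apart for 16 of 256 groups of libraries checked. Each did so by a gap to the nearest library that is large beside the range of its group. A group holds the libraries of 1 siRNA with both rounds together, so a library apart only within its round can be missed. For values with no difference between rounds, chance flags about 1 in 20 groups. Among controls, GFP replicate 1 was high for br (gap 0.553 of the range), Nep3 (0.589), Nep2 (0.586) and Syt1 (0.505), and low for Ctu2 (0.51). GFP replicate 9 was low for fng (0.621) and Lop1 (0.507), GFP replicate 8 low for Nmdar1 (0.574) and GFP replicate 3 low for Hsc20 (0.53). Among knockdown libraries, Kr-h1 replicate 1 was low for Alk (0.621) and Nep3 (0.587) and high for Prx5 (0.574), nSyb (0.592) and Syt1 (0.551). Kr-h1 replicate 2 was high for the muscle genes Mhc (0.599) and Tm2 (0.668).

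The effect of the knockdown differed between gamergates and workers, by limma's contrast of the 2 effects at an adjusted p under 0.05, for 74 of 127 named genes, 39 with a lower and 35 with a higher effect in gamergates, against 16.5% of all genes. Most named genes were chosen by their values in the same gamergate libraries, so this number is no evidence about them. It was 16 with the span trend removed, when 248 genes differed in all, and 30 without GFP replicate 1 and Kr-h1 replicate 1, when 315 did. The lower ones, as log2 differences, included genes of signalling: Octalpha2R (-0.96), Alk (-0.9), sev (-0.89), Dl (-0.85), Egfr (-0.81), Oamb (-0.8), aop (-0.7), Tor (-0.68), rictor (-0.64), chico (-0.5), stumps (-0.49), Nmdar1 (-0.46) and Nlg3 (-0.45). Transcription factors and clock genes among them were Optix (-1.02), br (-1.02), Clk (-0.91), per (-0.8), sima (-0.71), wake (-0.7), eya (-0.63), cyc (-0.6) and ftz-f1 (-0.46). Metabolic and transport genes among them were PCB (-0.83), FASN1 (-0.77), Gyg (-0.66), ATP7 (-0.63), Oatp58Dc (-0.6), Fatp1 (-0.51) and ACC (-0.5). The others with a lower effect were Asap (-1.38), Fur2 (-1.21), Hil (-1.1), Cals (-1.09), Zasp66 (-0.85), inaE (-0.83), Nep3 (-0.8), Ppn (-0.77), LOC105192651 (-0.66) and mwh (-0.63).

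Genes with a higher effect in gamergates included ribosomal proteins: RpL29 (1.15), RpL38 (1.01), RpL36A (0.83), mRpL30 (0.78), RpS25 (0.74), mRpL32 (0.73), mRpL17 (0.66) and mRpS5 (0.6). Respiratory subunits were ND-B8 (0.93), ND-B15 (0.9), ND-B17 (0.62) and ATPsyndelta (0.46). Genes of splicing, transcription and RNA modification were EloC (0.77), mtTFB2 (0.71), Rpb11 (0.71), LSm1 (0.7), SmD2 (0.67), Ctu2 (0.57), Elp5 (0.51), Rtf1 (0.49) and Set2 (0.4). Antioxidant and folding genes were Hsc20 (0.81), Prx5 (0.55), Tpx-3 (0.51), Gclm (0.48) and Prx6a (0.45). The others were Rh5 (1.3), Trs33 (0.9), l(2)37Cg (0.9), AP-2sigma (0.86), robl (0.85), Sec8 (0.72), rswl (0.71), LOC105188245 (0.51) and Rheb (0.24).

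The effect differed between the rounds, by the interaction term, for 6 pseudogenes. As round 3 minus round 2 on the log2 scale, the differences were -2.87 for LOC112589011, -2.61 for LOC112588468, -2.68 for LOC112588467, -2.93 for LOC112588546, -3.05 for LOC112588547 and -2.77 for LOC112590528.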

How the results depend on the processing

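The count of 192 called genes was 154 and 198 with pseudocounts of 0.1 and 1, 140 with a filter of at least 5 FPKM, 183 with equal library medians, 206 after quantile normalization and 204 with a robust variance model. It moved by over 1.5 times to 47 with no filter (74.5% lower, against 55.2%), 1 without the round term, 68 with all 32 libraries in 1 fit (59 shared), 565 with array weights (46.9% lower), 24 with the span trend removed (87.5% lower) and 91 with limma voom on recovered reads (69.2% lower, all 91 shared). By limma it was 0 in round 2 alone (1106 genes at an unadjusted p under 0.05) and 0 in round 3 alone (1459). Without 1 library at a time it ran from 11 to 1052. Without GFP replicate 1 and Kr-h1 replicate 1, whose array weights of 0.247 and 0.252 were under 0.3, it was 11, an alternative chosen after seeing the data.

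The Kr-h1 difference was -0.97 without regard to round, and -1.49 and -0.76 with pseudocounts of 0.1 and 1. It was -1.79 in round 2 alone and -0.32 in round 3 alone, and missed 0.05 in both (exact permutation p = 0.0571 and 0.0556). Without 1 library at a time it ran from -0.76 to -1.13. The 6 genes that differed between rounds became 11 with array weights and 0 to 9 without 1 library. The 1554 genes that differed between castes became 248 with the span trend removed (93 higher and 155 lower in gamergates, against 893 and 661), 817 with array weights, 315 without the 2 low-weight libraries and 778 to 2191 without 1 library. The caste-biased medians kept their sign in each of their alternatives, at 0.10 to 0.33 and -0.27 to -0.13.

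A few genes that were not called changed sign, among them Mhc and Tm2, which were not near 0 within round 3 (-0.79 and -0.68). In round 2 alone fln was at -0.15, Mhc 0.40, Tm2 0.40, Mlc2 0.36, Lop1 0.086 and brp 0.037, and in round 3 alone Syt1 was at 0.016. Without the round term brp was at 0.0050. With array weights Nep2 was at 0.16 and Syt1 at 0.0045. With the span trend removed Nep2, Syt1 and brp were at 0.066, 0.10 and 0.098. Without the 2 low-weight libraries Nep2 and Syt1 were at 0.26 and 0.0094. Without 1 library at a time Nep2 ran from -0.21 to 0.25, Syt1 from -0.050 to 0.038, brp from -0.092 to 0.039 and Mlc2 from -0.64 to 0.052. The cause of these shifts was not tested.

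Replicate numbers were not taken as pairs in the main fit. The correlation of same-numbered deviations ran from -0.416 to 0.46 and was over 0.1 in 3 of 8 pairs, and 3 Kr-h1 libraries were closest to their own number. With 8 pairs and no rate expected by chance beside them, these values cannot show whether the libraries were paired. With the replicate block 17 genes were called (82.4% lower, 15 shared), and Kr-h1 was at -1.03 over 8 pairs (exact sign-flip p = 0.00781). Promoter motifs were not run. At these depths a gene like Kr-h1 rests on few reads in some libraries.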
